A study of Mus musculus with 6 samples.

Results

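Solute carriers are the membrane proteins that move amino acids, sugars, lactate, metals, vitamins, nucleosides and metabolites across the plasma membrane and the membranes of lysosomes, the Golgi and mitochondria. Their genes are named Slc with a family number, a letter and a member number. The family members described here are the genes of the deposited mouse table with such a name and a mean of at least 5 CPM (the count scaled by the library total) over all 6 libraries, with the iron carriers Slc40a1, Slc11a1 and Slc11a2 left out. That rule gave 145 members out of 358 carrier genes and 55335 genes in the table. The members were thus chosen by their mean level over both groups together, and their levels are a description. The difference between the groups was not used in the choice.

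The libraries come from bone marrow-derived macrophages (BMDMs) of mice, primary cells grown out of marrow with 20 ng/mL of recombinant mouse M-CSF, the macrophage growth factor, in high-glucose medium with 10% serum. All 6 samples received medium from injured pancreatic acinar cells (PAC-CM) on day 5. Kinsenoside, a glycoside found in jewel orchids, was absent in 3 libraries and present at 400 µM in the other 3. The strain, sex and age of the mice are not in the labels, and no macrophages without PAC-CM are among the samples, so the comparison is of kinsenoside within PAC-CM only.

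Macrophages depend on carriers at several places. At the cell surface they take up cystine and arginine, precursors of glutathione and nitric oxide, and export the lactate made by glycolysis. In lysosomes, carriers return the amino acids, nucleosides, peptides and heme of digested cells to the cytosol, and in mitochondria they exchange metabolites, nucleotides and phosphate with the cytosol.

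Total counts ranged from 41125059 to 47461702 per library, so the floor of 3 counts lay between 0.0632 and 0.0729 CPM, which covers counting error only. The groups lay apart along the first principal component (28.8% of the variance), and kinsenoside replicate 1 stood apart from the rest along the second. Macrophage markers summed to between 28174 and 30305 CPM in PAC-CM and between 30074 and 33867 CPM with kinsenoside. Of the acinar markers, all 14 together reached at most 9.39 CPM in any library and the defining factor Ptf1a was at 0. The 10 neutrophil markers summed to between 67.0 and 83.8 CPM in PAC-CM and between 113 and 169 CPM with kinsenoside, while Elane and Retnlg were at 0 in every library and Ly6g did not exceed 0.0632 CPM. Of that list, Mmp8 had 29.2, 43.8 and 36.3 CPM in PAC-CM and 126, 79.4 and 88.6 CPM with kinsenoside, and S100a8 had 36.8, 38.9 and 28.5 CPM against 41.8, 30.0 and 37.8 CPM. The part of those marker levels in the carrier values below was not tested. In bulk libraries, fewer cells of a type and less RNA per cell cannot be told apart. Nothing in the labels ties the replicates to separate cultures or animals, so the p-values refer to the spread among these samples, which may be technical.

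Carrier expression was concentrated in a few genes. Of all counts, members held 1.66%, 1.62% and 1.64% without kinsenoside and 1.60%, 1.60% and 1.49% with it. All kinsenoside values were below all PAC-CM values, with kinsenoside replicate 3 the lowest. These shares are of raw library totals, without the TMM factors, a correction for composition. Those factors were 1.013 to 1.019 in PAC-CM and 0.979 to 0.990 with kinsenoside. Division by these factors lowers the PAC-CM shares and raises the kinsenoside shares, after which the groups overlap. The 10 most abundant members held 52.4% of the members' counts. Of the 145, 31 had a mean of at least 100 CPM, 93 lay between 10 and 100 CPM and 21 between 5 and 10 CPM. Outside the members, 97 carriers had no count in any library, 82 were above 0 but under 1 CPM and 34 lay between 1 and 5 CPM. Just above the limit were Slc19a2 at 5.05, Slc39a8 at 5.06 and Slc35d1 at 5.06 CPM, and just below it were Slc20a2 at 4.60, Slc25a23 at 4.57 and Slc43a3 at 4.51 CPM. All 145 members and 53 of the carriers below the limit entered the test. For 4 members 1 of the group means was under 5 CPM: Slc6a4, Slc19a2, Slc35d1 and Slc39a8.

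Levels of different genes were compared per kilobase of exon, with exon lengths from GENCODE M21. On that scale the members spanned 625-fold around a median of 7.40 CPM per kb. Highest was Slc48a1, which moves heme out of the lysosome, at 371 CPM per kb, and next was Slc15a3, a lysosomal carrier of peptides and histidine, at 294 CPM per kb. Slc7a2, an arginine and lysine carrier of the cell surface, followed at 194, and Slc3a2, the heavy chain that brings several amino acid carriers to the surface, at 187 CPM per kb. The copper carriers Slc31a2 and Slc31a1 lay at 144 and 139 CPM per kb. Slc7a8, a neutral amino acid light chain that pairs with Slc3a2, had 125, Slc28a2, a nucleoside importer, 100.2, Slc39a1, a zinc importer, 98.7, and Slc16a3, the lactate exporter MCT4, 97.8 CPM per kb. Among the neighbours named, the libraries overlapped in range for Slc7a2 and Slc3a2, and for each pair of neighbours from Slc31a2 to Slc16a3. The exons of Slc15a3 overlap Tmem132a on the other strand over 28.1% of their length, and strand use in the counting was not given in the sources used here, so reads of those genes cannot be told apart.

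**Figure D1:**
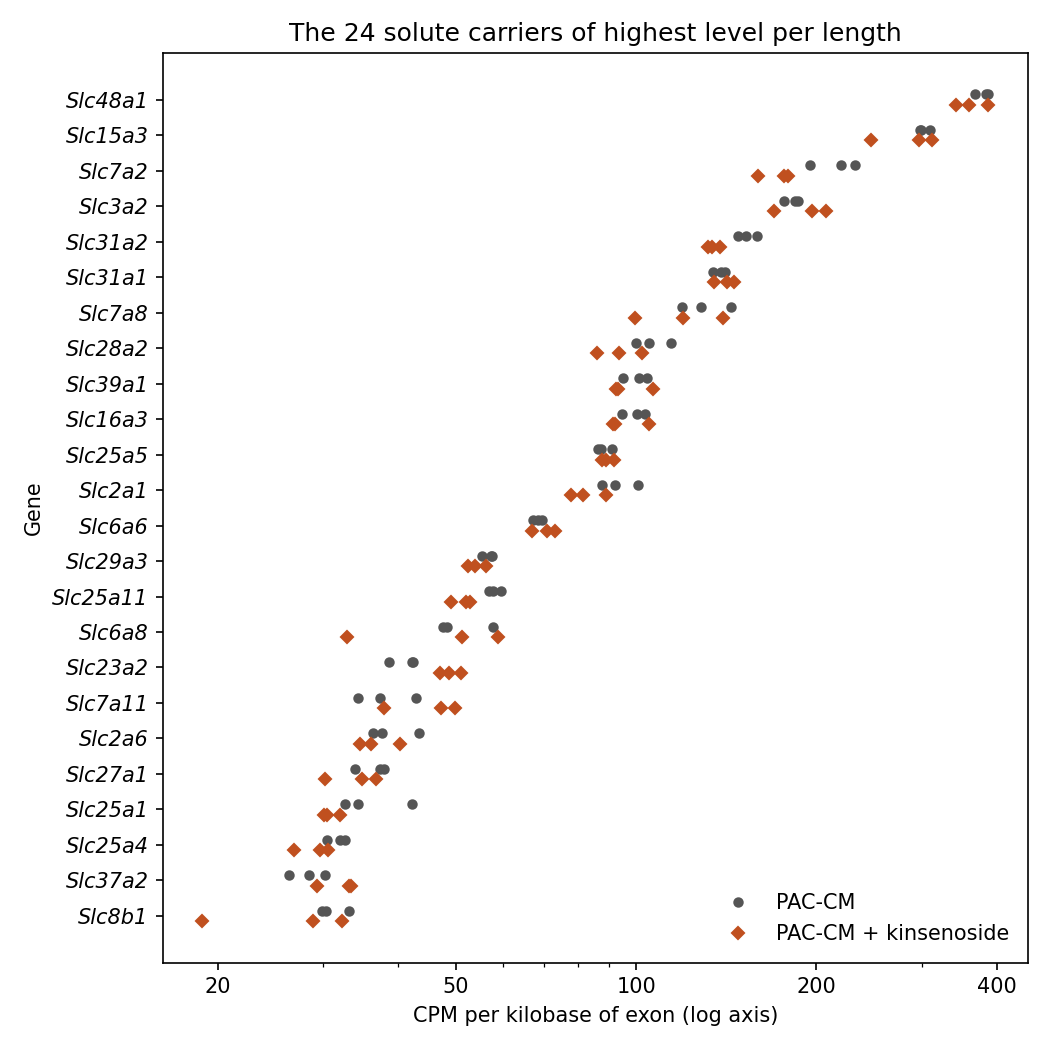
Level of the 24 members with the highest mean CPM per kilobase of exon, on a log axis, with 1 point per library (grey circles PAC-CM, orange diamonds PAC-CM with kinsenoside, n = 3 each). Slc48a1, Slc15a3, Slc7a2 and Slc3a2 lead at 371, 294, 194 and 187 CPM per kb, and for most of the genes shown the points of the groups overlap.

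The comparison asks which carriers kinsenoside moved in macrophages given PAC-CM. Only 1 member passed the threshold: Slc16a6, a monocarboxylate transporter known for the export of ketone bodies, rose with kinsenoside. Slc25a25, a mitochondrial ATP-magnesium/phosphate carrier, and Slc23a2, the vitamin C importer SVCT2, had the next smallest p-values among members with a higher level, and Slc1a5, the glutamine carrier ASCT2, and Slc25a10, the mitochondrial dicarboxylate carrier, the smallest among those with a lower level. None of those 4 passed in the edgeR fit. Most members differed little, since the log2 fold change lay within 0.2 of 0 for 103 of 145, or 71.0%. That was no feature of carriers, as the share was 63.0% for all genes tested and 75.5% for those at or above the limit. Group means lay within 10% of each other for 75 members.

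In the quasi-likelihood fit of edgeR, adjusted by Benjamini-Hochberg over all 13901 genes tested, 1 of 145 members (0.690%) had an adjusted p under 0.05, beside 0.511% of all genes tested, a share near the background. That member was higher, as were 0.209% of all genes, and 0.302% were lower. Of the 9155 tested genes at or above the members' limit of 5 CPM, 0.688% were called, 0.262% higher and 0.426% lower. No member was called lower, where 25 had a nominal (unadjusted) p under 0.05. DESeq2 called 3 members lower (2.07%), beside 1.07% of all genes tested and 2.40% of those at or above the limit, and limma-voom called 0, beside 0.144%. A nominal p under 0.05 was found for 34 members (23.4%), beside 14.9% of all genes tested and 17.4% of those at or above the limit. Of these 34, 9 were higher (6.21%, beside 6.74% of all genes and 8.72% of those at or above the limit) and 25 lower with kinsenoside (17.2%, beside 8.19% and 8.73%). The largest adjusted p among the 34 was 0.333. Without PAC-CM replicate 1, and again without PAC-CM replicate 2, 21 members (14.5%) had a nominal p under 0.05, 7 higher and 14 lower. In those fits the shares were 10.5% and 10.3% of all genes tested, and 12.2% and 12.1% of those at or above the limit.

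In CPM the groups did not overlap for 44 members (30.3%), beside 22.5% of all genes tested and 24.8% of those at or above the limit. Of the 44, 5 were higher (3.45%, beside 6.86% and 7.74%) and 39 lower (26.9%, beside 15.7% and 17.0%). After scaling by the TMM factors, edgeR's correction for composition, there were 41 such members (28.3%, beside 21.8% and 24.2%). Of the 41, 12 were higher (8.28%, beside 10.4% and 12.5%) and 29 lower (20.0%, beside 11.4% and 11.8%). Among the members named below, Slc20a1, Slc25a3, Slc25a5, Slc25a37, Slc26a11 and Slc35f5 were apart, and higher, only after TMM scaling. Slc25a1 and Slc38a2 were apart, and lower, only before it. Scaling by total counts gave 6 members higher (4.14%) and 33 lower (22.8%) at a nominal p under 0.05. With that scaling the shares were 4.24% and 11.3% of all genes tested, and 5.33% and 12.6% of those at or above the limit. The median log2 fold change of the members was -0.03, with quartiles of -0.17 and 0.09 and 58 values above 0 and 87 below. For all genes tested the median was -0.01, with 6798 values above 0 and 7103 below. For those at or above the limit it was 0.005, with quartiles of -0.11 and 0.11 and 4723 values above 0 and 4432 below. With total counts the medians were -0.07 for the members and -0.05 for all genes. Replicates of a member had a median coefficient of variation of 6.80% in PAC-CM and 8.03% with kinsenoside.

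**Figure D2:**
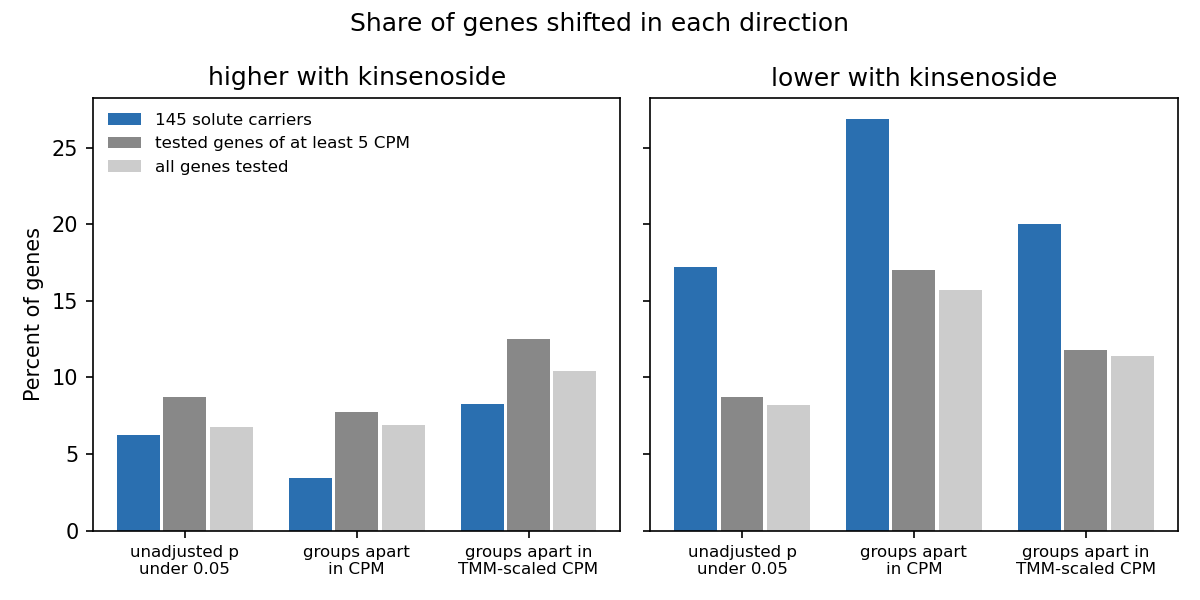
Percent of genes shifted up (left) or down (right) with kinsenoside, for the 145 members (blue), the 9155 tested genes of at least 5 CPM (dark grey) and all 13901 tested genes (light grey), by a nominal (unadjusted) p under 0.05 (edgeR) and by groups that do not overlap in CPM or in TMM-scaled CPM. The members' bars on the right reach 17.2%, 26.9% and 20.0%, above both grey bars, and those on the left 6.21%, 3.45% and 8.28%, below both.

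Roles were assigned by gene symbol or, failing that, by Slc family, so a role can hold members with other substrates. Beside the role and list counts below, 6.74% of all genes tested were higher and 8.19% lower at a nominal p under 0.05. Of those at or above the limit, 8.72% were higher and 8.73% lower. Monocarboxylate and other organic anion carriers numbered 8, with 1 higher and 2 lower at a nominal p under 0.05 and a median log2 fold change of 0.02. Slc16a6 (ENSMUSG00000041920, chromosome 11, 109450855 to 109473598, minus strand, GRCm38) was at 105, 105 and 114 CPM in PAC-CM and at 138, 147 and 166 CPM with kinsenoside. All 3 kinsenoside libraries lay above all 3 PAC-CM libraries, with means of 108 ± 5.01 and 150.4 ± 14.3 CPM (SD, n = 3 each). The log2 fold change was 0.52 with a standard error of 0.08 and an edgeR adjusted p of 0.0423. That call ended when PAC-CM replicate 1, 2 or 3 or kinsenoside replicate 2 or 3 was left out (adjusted p from 0.0735 to 0.179), with limma-voom (0.0636) and with non-robust estimates (0.0649). Over 15 alternatives its adjusted p ran from 3.86e-05 with DESeq2 to 0.179. The exons of Slc16a6 overlap Amz2 on the other strand over 21.5% of their length. Amz2 had 1384, 1581 and 1325 counts in PAC-CM and 1390, 1210 and 1135 counts with kinsenoside. Arsg, also on the other strand, shares 0.983% of that length and had 96, 85 and 116 counts in PAC-CM and 118, 125 and 141 counts with kinsenoside. The part of these overlapping genes in the Slc16a6 value was not tested.

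The lactate carriers did not separate the groups. Slc16a3, the exporter of glycolytic cells, had 549, 504 and 533 CPM in PAC-CM and 558, 486 and 489.6 CPM with kinsenoside, a log2 fold change of -0.01 (adjusted p 0.987). Slc16a1, the widely expressed lactate and pyruvate carrier MCT1, had 49.1, 40.5 and 40.6 CPM against 49.98, 42.1 and 55.6 CPM. Slc16a10, the aromatic amino acid carrier TAT1, differed in the direction opposite to Slc16a6, at 126, 123 and 121 CPM in PAC-CM and 106, 101 and 87.4 CPM with kinsenoside. Its groups were apart, with a log2 fold change of -0.28 and an edgeR adjusted p of 0.162. Slc17a5, the lysosomal sialic acid exporter sialin, was at 29.6, 15.4 and 31.7 CPM against 34.4, 37.6 and 37.6 CPM. The low value of PAC-CM replicate 2 set the size of that difference, which was 0.56 on the log2 scale with all libraries and 0.30 without that one.

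Amino acid carriers were the group of highest summed level, with 20 members of 60 genes, 19 of the 60 having no count. None was called by edgeR. At a nominal p under 0.05, 4 were higher and 5 lower, beside 6.74% and 8.19% of all genes tested. Slc6a4, among the 5 lower, is a serotonin carrier that this role also holds. The median log2 fold change of the role was -0.06. Slc1a5 (chromosome 7, 16781340 to 16798274), which exchanges glutamine for other neutral amino acids, had 9.96, 9.35 and 7.80 CPM in PAC-CM and 5.87, 6.11 and 4.91 CPM with kinsenoside. Every kinsenoside library was below every PAC-CM library. The log2 fold change was -0.64 (standard error 0.14), with an edgeR adjusted p of 0.0926 and a DESeq2 adjusted p of 0.0115. Slc1a5 held between 202 and 444 counts per library.

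Slc7a2 (chromosome 8, 40862396 to 40922308), which feeds arginine to nitric oxide synthase and arginase, had the highest CPM of all members. It was at 2118, 1779.9 and 2006 CPM in PAC-CM and at 1611, 1639 and 1460.4 CPM with kinsenoside. Its groups did not overlap, and the log2 fold change of -0.28 had an edgeR adjusted p of 0.162. Slc7a7, the light chain that exports arginine and lysine in exchange for neutral amino acids, had 62.4, 64.3 and 60.7 CPM against 57.6, 58.1 and 56.4 CPM, also apart, with a log2 fold change of -0.08 (adjusted p 0.599). Slc7a6, its close relative, had 10.2, 8.53 and 9.50 CPM against 12.4, 14.7 and 9.39 CPM, where kinsenoside replicate 3 fell among the PAC-CM values (log2 fold change 0.42, adjusted p 0.280).

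Their shared heavy chain Slc3a2 was at 650.3, 658 and 622 CPM in PAC-CM and at 731, 694 and 599 CPM with kinsenoside, with overlapping groups and a log2 fold change of 0.11 (adjusted p 0.563). Slc7a8 overlapped as well, at 641, 721 and 597 CPM against 699, 599.9 and 498 CPM. Slc36a4, an amino acid carrier of the lysosome and cell surface, had 64.0, 53.7 and 59.2 CPM in PAC-CM and 66.8, 78.5 and 65.0 CPM with kinsenoside. Its groups lay apart by a narrow gap, and its log2 fold change was 0.29 (adjusted p 0.206). Slc36a1, its lysosomal relative, had a mean of 144 ± 5.61 CPM without kinsenoside and of 126 ± 3.41 CPM with it (SD, n = 3 each; edgeR adjusted p 0.304).

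Slc7a11, the light chain of the cystine/glutamate exchanger, supplies cysteine for glutathione and is a textbook target of ATF4, the factor of the amino acid response. It is shown with its promoter because it alone, of the 4 members on a list of ATF4 targets that have a promoter window, held the motif bound by ATF4 with C/EBP factors. The 250 bases before its start in RefSeq (GRCm38.p6, chr3:50443614-50443863, minus strand) read as follows, with the matches of TGATGNAA, on either strand, in capitals.

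Slc7a11: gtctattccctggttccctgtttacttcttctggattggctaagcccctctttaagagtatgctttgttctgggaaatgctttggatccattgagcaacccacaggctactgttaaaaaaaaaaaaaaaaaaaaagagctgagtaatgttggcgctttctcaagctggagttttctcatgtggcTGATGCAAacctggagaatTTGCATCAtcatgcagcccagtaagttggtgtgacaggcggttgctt

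One match begins 66 bases before the start on the gene's strand and the other 47 bases before it on the opposite strand, so they face each other. RefSeq windows from 250 bases before to 50 after the start were found for 115 members. The motif was in 3 of them (2.61%), namely Slc7a11, Slc7a7 and Slc50a1, in 2.77% of expressed genes and in 4.51% of all genes with a window. CACGTG, the E-box bound by MYC and TFEB type factors, was in 23 of the 115 (20.0%), beside 12.8% of expressed genes, and TGACNNNGC, the core of the antioxidant response element, in 26 (22.6%), beside 17.3%. Both strands were searched, windows on chromosome 18 were left out, and a match describes letters, not binding.

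In the libraries Slc7a11 had 519, 477 and 596 CPM in PAC-CM and 528, 656 and 694 CPM with kinsenoside. Its groups overlapped through kinsenoside replicate 1. The log2 fold change was 0.28 with a standard error of 0.12, a nominal p of 0.0454 and an adjusted p of 0.324. Log2 fold changes of the other members on the ATF4 list had both signs: Slc3a2 and Slc7a6 had 0.11 and 0.42, and Slc1a5 and Slc38a2, a glutamine carrier, had -0.64 and -0.11. Over the 9 of 10 genes of that list tested, 0 were called by edgeR, 2 were higher and 1 lower at a nominal p under 0.05, and the median was 0.14. Of 16 genes of the amino acid response (factors such as Atf4, biosynthetic enzymes and tRNA synthetases), 0 were called and 0 were higher and 2 lower at that p, with a median of -0.01. The 2 were Shmt2, an enzyme of serine and glycine metabolism (adjusted p 0.182), and Gars, the glycyl-tRNA synthetase (adjusted p 0.323). Slc7a5, the leucine carrier that is usually Slc3a2's main partner, was below the limit, with a mean of 1.94 CPM.

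**Figure D3:**
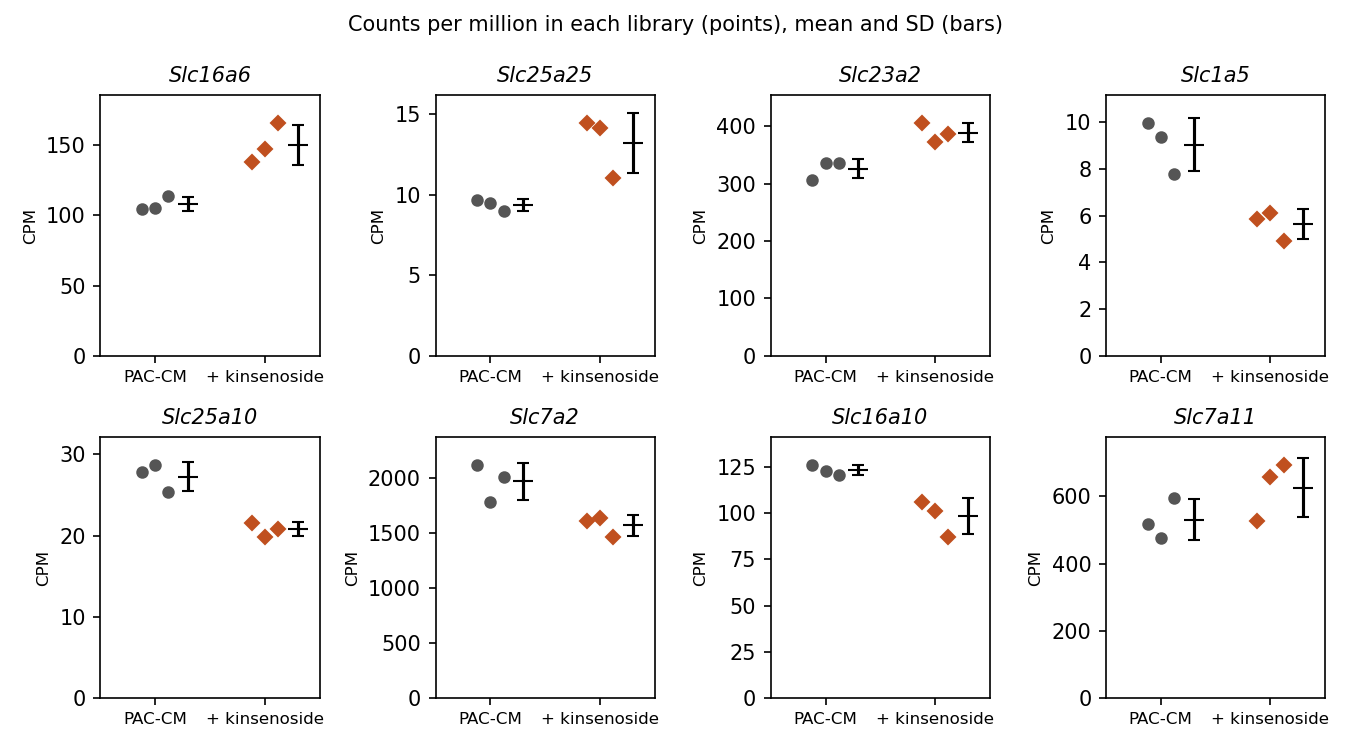
CPM per library (points) with the mean and SD of 3 libraries (black bars) for 8 members, with axes that start at 0. Slc16a6, Slc25a25 and Slc23a2 have all kinsenoside points above all PAC-CM points, Slc1a5, Slc25a10, Slc7a2 and Slc16a10 have all of them below, and for Slc7a11 the groups overlap at 528 CPM.

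The mitochondrial carrier family Slc25, the largest role with 30 members, gave 0 calls and a median of 0.02. At a nominal p under 0.05, 1 was higher and 3 lower, beside 6.74% and 8.19% of all genes tested. Slc25a25 (chromosome 2, 32414487 to 32451445), which is activated by calcium and loads mitochondria with adenine nucleotides, had 9.69, 9.46 and 8.95 CPM in PAC-CM and 14.4, 14.1 and 11 CPM with kinsenoside. All kinsenoside libraries were above all PAC-CM libraries. The log2 fold change was 0.54 (standard error 0.12), with an edgeR adjusted p of 0.09999 and a DESeq2 adjusted p of 0.0162. Slc25a10, which exchanges malate and succinate for phosphate, had 27.8, 28.7 and 25.3 CPM against 21.6, 19.9 and 20.8 CPM, also without overlap, and a log2 fold change of -0.35 (edgeR adjusted p 0.1101, DESeq2 0.0358).

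Some other metabolite exchangers of mitochondria also had lower means with kinsenoside, without passing the test. Slc25a11, the oxoglutarate/malate carrier, had 126, 122 and 120.4 CPM in PAC-CM and 110.3, 104 and 112 CPM with kinsenoside, with a log2 fold change of -0.13 (adjusted p 0.362). For Slc25a1, the citrate carrier, values were 91.4, 74.2 and 70.6 CPM against 69.2, 65.8 and 65.1 CPM, apart in CPM but not after TMM scaling. The list of 7 tested exchangers of citrate, malate, aspartate, glutamate and carnitine had a median of -0.12, with 1 lower at a nominal p under 0.05. The carriers of phosphate, ADP and ATP had values of both signs. Slc25a3, the phosphate carrier, had a log2 fold change of 0.12 (adjusted p 0.420), and of the ADP/ATP exchangers Slc25a5 had 0.07 (adjusted p 0.652) and Slc25a4 -0.08 (adjusted p 0.644). Of the ATP-magnesium/phosphate carriers, Slc25a24 was at 0.11, Slc25a25 at 0.54 and Slc25a23, which is below the limit, at -0.38 (adjusted p 0.229). Slc25a37, which imports iron for heme synthesis, had 172, 162 and 163 CPM against 175, 181 and 171 CPM (0.13, adjusted p 0.348).

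Sugar carriers numbered 10, with 1 higher and 3 lower at a nominal p under 0.05, beside 6.74% and 8.19% of all genes tested. Their median was -0.13. Slc2a1, the glucose importer GLUT1, had 323, 352 and 308 CPM in PAC-CM and 313, 272 and 286 CPM with kinsenoside, where kinsenoside replicate 1 lay among the PAC-CM values (log2 fold change -0.13, adjusted p 0.491). Slc2a6, a lysosomal relative of the glucose carriers, overlapped at 139, 117 and 121 CPM against 111, 129 and 116 CPM. Slc37a2, the glucose-6-phosphate carrier of the endoplasmic reticulum in macrophages, had 175, 201 and 189 CPM against 220.2, 195 and 222 CPM. Its groups overlapped through kinsenoside replicate 2, with a log2 fold change of 0.22 (adjusted p 0.260). Txnip, which withdraws glucose carriers from the surface, was at 358, 387 and 443 CPM in PAC-CM and 214, 357 and 259 CPM with kinsenoside (log2 fold change -0.47, adjusted p 0.331). Its relative Arrdc4 was at 63.9, 57.4 and 64.0 CPM in PAC-CM and 72.7, 75.2 and 71.9 CPM with kinsenoside, with groups that did not overlap (log2 fold change 0.29, adjusted p 0.111).

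**Figure D4:**
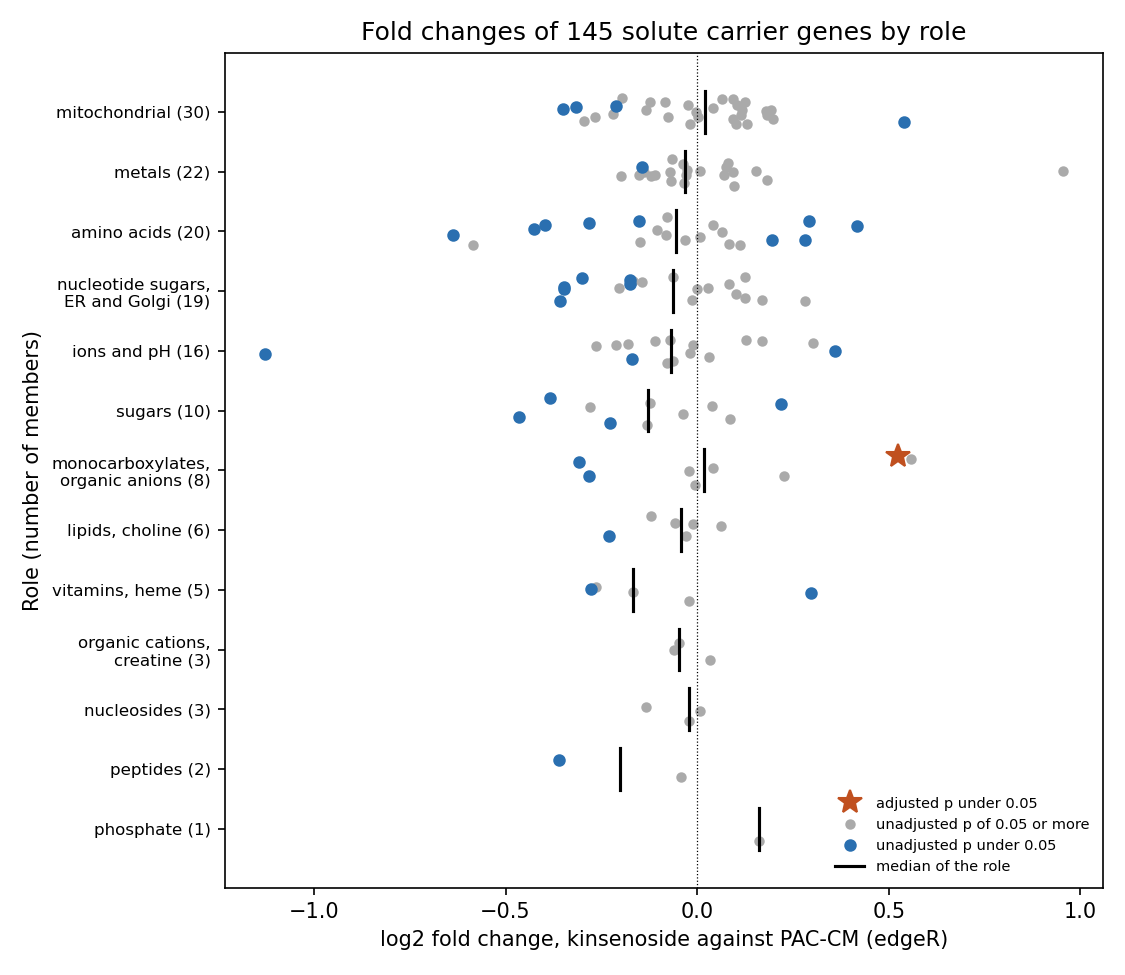
Log2 fold change of each of the 145 members (kinsenoside against PAC-CM, edgeR) by role, with the median of the role as a black bar, nominal p under 0.05 in blue and the 1 member with an adjusted p under 0.05 as a star. Most points lie within 0.2 of 0, and the points farthest out are Slc4a7 at -1.13 and Slc39a9 at 0.95.

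Vitamin and heme carriers numbered 5. Slc23a2 (chromosome 2, 132052496 to 132145108) had 307, 335 and 336 CPM in PAC-CM and 406, 373 and 387 CPM with kinsenoside. The groups did not overlap, with means of 326 ± 16.6 and 389 ± 16.3 CPM. The log2 fold change was 0.30 (standard error 0.07), with an edgeR adjusted p of 0.101 and a DESeq2 adjusted p of 0.0155. Slc46a1, the proton-coupled folate carrier, had 17.7, 17.7 and 16.4 CPM against 14.6, 14.8 and 12.1 CPM, apart in the lower direction (-0.28, adjusted p 0.253). Slc48a1 overlapped, at 1054, 1065 and 1014 CPM against 1062, 990.0 and 943 CPM (-0.02, adjusted p 0.921).

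Among peptide and nucleoside carriers of the lysosome and surface, Slc15a3 had 1636, 1643 and 1701 CPM in PAC-CM and 1627, 1713 and 1354 CPM with kinsenoside. Its spread with kinsenoside came from replicate 3 (log2 fold change -0.04, adjusted p 0.874). Slc15a4, the related carrier needed for signalling by endosomal Toll-like receptors, had 19.1, 21.8 and 19.1 CPM against 16.2, 17.1 and 12 CPM. Its groups were apart, with a log2 fold change of -0.36 and an adjusted p of 0.273. Slc28a2 overlapped at 419.7, 441 and 482 CPM against 362, 394 and 431 CPM, as did Slc29a3, the lysosomal nucleoside exporter, at 335, 333 and 323 CPM against 314, 327 and 305 CPM.

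Metal carriers, with 22 members, had 0 calls by edgeR. At a nominal p under 0.05, beside 6.74% of all genes tested higher and 8.19% lower, 0 were higher and 1 lower. That member was Slc31a2, a copper carrier of internal membranes, at 323, 301 and 311 CPM in PAC-CM and 281, 268 and 272 CPM with kinsenoside (log2 fold change -0.14, adjusted p 0.308). Slc31a1, the copper importer of the surface, overlapped at 576, 593 and 603 CPM against 624, 607 and 577 CPM. Zinc was represented by 11 importers of the Slc39 family and 6 exporters of the Slc30 family, and the median was 0.01 and -0.03 in these sets. Slc30a1, the zinc exporter of the surface, had 109, 98.2 and 109 CPM against 94.5, 106 and 99.8 CPM. Slc39a8, an importer of zinc and manganese, lay near the limit at 4.58, 5.31 and 5.03 CPM against 6.47, 4.55 and 4.43 CPM. Of 3 genes of the metallothionein and zinc response list 0 were called, with 1 higher by nominal p.

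A single library carried the largest positive log2 fold change of any member. Slc39a9, a zinc importer of the Golgi, was at 16.3, 13.7 and 16.9 CPM in PAC-CM and at 14.1, 57.7 and 16.4 CPM with kinsenoside, so that the log2 fold change was 0.95 with all libraries and 0.02 without kinsenoside replicate 2. Its exons overlap Erh on the other strand over 459 bases, and Erh had 905 counts in that library, against 823 to 934 in the other 5. Besides it, 8 other members differed by at least 2-fold between some pair of libraries. They include Slc1a5, Slc4a7 and Slc17a5, whose groups did not overlap in CPM. The share of all genes with such a range was not counted. Slc35a4, a Golgi carrier, took high values of 54.7, 55.6 and 49.8 CPM in 1 PAC-CM and 2 kinsenoside libraries and 22.5 to 28.7 CPM in the others, without following the groups.

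Ion and pH carriers numbered 16, with 1 higher and 2 lower at a nominal p under 0.05, beside 6.74% and 8.19% of all genes tested. Their median was -0.07. Slc4a7, a sodium bicarbonate importer, had 8.52, 10.0 and 19.9 CPM in PAC-CM and 6.03, 5.28 and 5.74 CPM with kinsenoside. The groups did not overlap, but the size of the difference rested on PAC-CM replicate 3: the log2 fold change was -1.13 with it and -0.66 without it. The edgeR adjusted p was 0.211 and that of DESeq2 was 0.00367. Slc12a4, a potassium chloride exporter used in volume control, was at 97.9, 93.3 and 86.5 CPM against 81.1, 82.5 and 75.8 CPM (-0.17, adjusted p 0.311). Slc26a11, an anion carrier, had 6.88, 8.18 and 6.94 CPM against 10.2, 9.05 and 8.12 CPM (0.36, adjusted p 0.241). Its groups overlapped by a narrow margin in CPM and were apart after TMM scaling. Slc8b1, the mitochondrial sodium/calcium exchanger, lay between 103 and 115 CPM in PAC-CM and between 65.2 and 112 CPM with kinsenoside, where replicate 3 was lowest.

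Carriers of nucleotide sugars and related compounds in the endoplasmic reticulum and Golgi numbered 19, with a median of -0.06. None was called by edgeR. At a nominal p under 0.05, 0 were higher and 6 lower, beside 6.74% and 8.19% of all genes tested. Of those at or above the limit, the shares were 8.72% and 8.73%. Slc35c1, which brings GDP-fucose into the Golgi, had 33.1, 30.6 and 27.2 CPM in PAC-CM and 23.9, 24.5 and 23.2 CPM with kinsenoside. Its groups were apart (log2 fold change -0.30, adjusted p 0.168). Slc35e4 was at 15.9, 14.1 and 13.3 CPM against 10.9, 11.8 and 10.0 CPM (-0.36, adjusted p 0.178), and Slc35f6 at 126, 127 and 122 CPM against 107, 108 and 107 CPM (-0.18, adjusted p 0.210). The other 3 of the 6 were Slc33a1, which imports acetyl-CoA into the endoplasmic reticulum, Slc35b4 and Slc35a2, which carries UDP-galactose. In contrast Slc35f5 had 56.5, 54.1 and 55.6 CPM against 56.5, 59.6 and 59.5 CPM (0.12, adjusted p 0.391).

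The smaller roles were lipids and choline, organic cations with creatine, and phosphate. Slc27a1, a fatty acid carrier, overlapped at 221, 218 and 198 CPM in PAC-CM and 214, 203 and 176 CPM with kinsenoside. Slc44a1, a choline carrier, was at 173, 163 and 158 CPM against 150.0, 146 and 144 CPM, apart, with a log2 fold change of -0.12 (adjusted p 0.403). The creatine importer Slc6a8 had 300.1, 252 and 248 CPM against 306, 266 and 171 CPM, so kinsenoside replicate 3 was lowest. Slc22a4, known as the ergothioneine carrier, was nearly level at 42.5, 41.3 and 44.1 CPM against 40.8, 42.2 and 43.9 CPM. Slc20a1, the phosphate importer, had 39.3, 36.7 and 38.2 CPM against 40.5, 44.4 and 39 CPM (0.16, adjusted p 0.336).

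Transporters that are named outside the Slc scheme were tested gene by gene, and the list as a whole was not tested. Of 29 such genes tested, among them the lysosomal genes Clcn7 and Mfsd1, 0 were called by edgeR, with 3 higher and 2 lower at a nominal p under 0.05 and a median of 0.04. Of 5 tested partners that escort or retrieve carriers 0 were called, with 2 higher and 1 lower by nominal p. They include Bsg, the chaperone of the lactate carriers, at a log2 fold change of -0.03, and Emb, its relative, at 0.29 (adjusted p 0.173).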

How the data were processed

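The deposited table holds whole-number counts per Ensembl gene and library, which the authors made. GRCm38, STAR, DESeq2 1.16.1, StringTie 1.3.1c, bcl2fastq 2.20 and FastQC 0.11.2 are listed, without their roles, per the submitters' processing notes. The tool that counted, and its use of strand, are not given in the sources used here. Counts were used as deposited, with groups from the labels. edgeR 4.0.16 (R 4.3.3) was run with filterByExpr, TMM, robust dispersions and a quasi-likelihood fit on group (4 residual degrees of freedom, Benjamini-Hochberg threshold 0.05) on 13901 genes, and was tested on simulated data. Alternatives were DESeq2 1.42.0, limma-voom (limma 3.58.1), other scalings, filters and member limits, non-robust estimates, a replicate block and leaving out each library. Leaving out members whose exons overlap another gene was chosen after seeing the data. Members, roles and lists were chosen with earlier results of these data known. Named members were those called, the 6 of smallest unadjusted p per direction, the 2 of highest CPM per role and a panel. Slc6a4 was named after its values were seen, as were the genes listed next. Slc4a7, Slc17a5, Slc39a9, Slc35a4, Slc25a1, Slc25a11, Slc16a1, Slc7a6, Slc7a8, Slc36a1, Slc38a2, Slc46a1, Slc50a1, Slc39a1, Slc33a1, Slc35b4, Slc35a2, Slc25a4, Slc25a23, Slc25a24, Txnip, Arrdc4, Emb, Bsg, Shmt2, Gars, Amz2, Arsg, Mmp8 and S100a8 were named after their values were seen.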

Additional observations from a re-analysis of the deposited data

How the results depend on the processing

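With 3 libraries per group, the calls depended on single libraries and on the tool. The count of all genes called was 71, and it was 441 with DESeq2, 39 with limma-voom, 36 with non-robust estimates and 13 to 98 with 1 library left out. Members called were 1 in edgeR, 0 with limma-voom, 0 with non-robust estimates and 0 to 1 with 1 library left out. DESeq2 called 6 members (Slc16a6, Slc1a5, Slc23a2, Slc25a10, Slc25a25 and Slc4a7). These were 4.14% of members, beside 1.88% of all genes tested with DESeq2 and 4.34% of those at or above the limit. With the 47 members whose exons overlap another gene left out, Slc16a6 itself among them, 0 were called. Members at a nominal p under 0.05 numbered 34, and between 21 and 33 (14.5% to 22.8%) with 1 library left out. In those fits the shares were 10.3% to 16.4% of all genes tested and 12.1% to 19.6% of those at or above the limit. Without overlapping members they numbered 22 of 98 (22.4%), beside 14.9% of all genes tested and 17.4% of those at or above the limit. Groups were apart in CPM for 29 of the 98 (29.6%), in place of 44, beside 22.5% and 24.8%. The members' median log2 fold change was -0.029, between -0.038 and -0.025 with 1 library left out, -0.047 with upper quartile factors and -0.074 with total count scaling. The cause of these differences was not tested. Without kinsenoside replicate 3, 25 members (17.2%) had such a p, 10 higher and 15 lower, beside 12.8% of all genes tested in that fit.

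For samples of the same replicate number, deviations from the group means had correlations of 0.009, -0.101 and 0.135. Pairs with unlike numbers ran from -0.173 to 0.164. These values gave no sign that the replicate numbers pair the samples, but they cannot exclude a shared culture or animal. A replicate block gave 42 genes and 1 member called. It gave 37 members (25.5%) at a nominal p under 0.05, beside 15.5% of all genes tested and 19.0% of those at or above the limit.

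Log2 fold changes of members near 0 changed sign. With 1 library left out they ran from -0.072 to 0.034 for Slc16a3 (0.0023 with RLE factors), from -0.24 to 0.14 for Slc6a8, from -0.098 to 0.043 for Slc2a6, from -0.071 to 0.013 for Slc30a1, from -0.104 to 0.19 for Slc39a8, from -0.34 to 0.015 for Slc8b1, from -0.12 to 0.016 for Slc27a1, from -0.11 to 0.049 for Slc15a3 and from -0.068 to 0.015 for Slc48a1. Slc22a4 was at -0.012 with total count scaling.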
